A study of Mus musculus with 24 samples.

Results

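The genes described here carry the symbols of mitochondrial ribosomal proteins. They were found in both deposited expression tables by symbol, as protein-coding genes named Mrpl or Mrps followed by a number, with pseudogenes left out. The rule keeps Mrps36, whose protein is not now counted as a ribosomal subunit. It gave 78 genes, 49 Mrpl (large subunit symbols) and 29 Mrps (small subunit symbols), out of 15667 genes listed in the table of uninjected hearts and 15327 in the table of injected hearts. All 78 were listed in both tables and all 78 passed the filter on low values in each, where 15598 and 14597 genes were tested.

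The samples were 24 mouse hearts taken at postnatal day 7.5, with 4 hearts in each of 6 groups. Xinβ KO mice carry a germline replacement of part of the Xinβ gene (symbol Xirp2), which encodes an intercalated disc protein, by a LacZ-Neo cassette on the C57BL6 background, and WT littermates were the controls. One set compared uninjected Xinβ KO with uninjected WT. In the other set, Xinβ KO and WT pups received AAV9 on postnatal day 1 that carried either GFP or YAP S127A, an active form of the Hippo pathway coactivator YAP, which gave 4 groups. They are called WT/GFP, WT/YAP, KO/GFP and KO/YAP, where YAP stands for YAP S127A. The YAP construct was expressed from the cardiac troponin T promoter, so it was directed to cardiomyocytes, whereas RNA came from whole tissue with all its cell types. The sample labels name the heart apex and the study's methods name the ventricles. In bulk tissue, fewer cells of a type and less RNA per cell cannot be told apart.

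The mitochondrial ribosome translates the few messages that the mitochondrial genome encodes, and their products are core subunits of the respiratory chain and of ATP synthase. Its RNAs are made inside the organelle, whereas every one of its proteins is encoded in the nucleus, made in the cytosol and imported. Some of these proteins have counterparts in bacterial ribosomes and others are found in mitochondria alone. The postnatal heart depends on this machinery, since it moves to oxidative metabolism after birth.

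The 78 genes lie on 17 chromosomes, with at most 11 on a single chromosome. Their union exon length had a median of 2394 bp (607 to 8631 bp), against 3901 bp for the genes tested in the uninjected table. A divergent protein-coding gene on the opposite strand started near 19 of the 78 genes (24.4%), between 1000 bp upstream and 100 bp inside the gene (Ndufs6 starts 29 bp inside Mrpl36), an arrangement found for 10.7% of the 12666 protein-coding genes tested. Such neighbours included Sars2 at Mrps12, 172 bp away, Ppp1r10 at Mrps18b, 45 bp away, and Psma2 at Mrpl32, 75 bp away. The RefSeq promoter windows (GRCm38.p6, 250 bp before to 50 bp after the start) covered 69 of the 78 genes in 75 windows. Mrps35, to which the fold changes below return, has no entry there.

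Letters of motifs known for binding regulators of nuclear mitochondrial genes were searched on both strands. The ETS family letters CCGGAAG, which GABP binds, were in 26 of 75 windows (34.7%), against 8.86% of all 32851 windows and 16.8% of the windows of tested genes. The NRF1 letters GCATGCGC were in 8 windows (10.7%), against 2.71% and 4.96%. The YY1 letters AAGATGGC were in 12 windows (16%), against 2.75% and 4.23%. Any of these 3 was in 38 of 75 windows (50.7%), against 13.3% of all windows and 23.8% of those of tested genes. The TEAD letters GGAATG, bound by the partners of YAP, were in 8 windows (10.7%), against 14.7% and 12.5%, and the E-box letters CACGTG in 7 windows (9.33%), against 7.15% and 9.67%. The letters of 2 of the 3 motifs were in 8 windows, those of Mrps12, Mrps18a, Mrps18b, Mrps27, Mrpl17, Mrpl22, Mrpl32 and Mrpl33. The windows of Mrps12, Mrps18a, Mrps18b and Mrpl32 are printed so that each pair of motifs is shown. Capitals mark those letters on either strand, and in Mrpl32 2 NRF1 matches overlap.

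Mrps12, chr7:28741772-28742071, minus strand, YY1 and ETS letters: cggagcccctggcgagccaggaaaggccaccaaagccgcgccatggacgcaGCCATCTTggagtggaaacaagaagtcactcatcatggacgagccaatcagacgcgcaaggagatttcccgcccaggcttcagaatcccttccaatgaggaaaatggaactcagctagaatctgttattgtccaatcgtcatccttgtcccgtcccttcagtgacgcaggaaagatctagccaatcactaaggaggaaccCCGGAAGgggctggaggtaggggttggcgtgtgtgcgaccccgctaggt

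Mrps18a, chr17:46110754-46111053, plus strand, ETS and YY1 letters: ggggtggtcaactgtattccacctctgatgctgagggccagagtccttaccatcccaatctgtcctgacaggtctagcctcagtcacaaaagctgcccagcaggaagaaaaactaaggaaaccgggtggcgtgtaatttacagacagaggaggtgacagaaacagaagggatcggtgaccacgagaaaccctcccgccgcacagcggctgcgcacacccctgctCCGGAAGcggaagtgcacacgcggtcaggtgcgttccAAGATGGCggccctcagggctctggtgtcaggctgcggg

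Mrps18b, chr17:35916391-35916690, minus strand, NRF1 and ETS letters: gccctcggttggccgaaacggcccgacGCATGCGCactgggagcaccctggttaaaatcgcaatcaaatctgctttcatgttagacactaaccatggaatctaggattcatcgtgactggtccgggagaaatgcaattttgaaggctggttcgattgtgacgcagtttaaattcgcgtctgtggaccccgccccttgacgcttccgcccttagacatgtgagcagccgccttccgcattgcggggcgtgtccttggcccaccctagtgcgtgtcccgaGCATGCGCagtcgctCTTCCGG

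Mrpl32, chr13:14612988-14613287, minus strand, YY1 and NRF1 letters: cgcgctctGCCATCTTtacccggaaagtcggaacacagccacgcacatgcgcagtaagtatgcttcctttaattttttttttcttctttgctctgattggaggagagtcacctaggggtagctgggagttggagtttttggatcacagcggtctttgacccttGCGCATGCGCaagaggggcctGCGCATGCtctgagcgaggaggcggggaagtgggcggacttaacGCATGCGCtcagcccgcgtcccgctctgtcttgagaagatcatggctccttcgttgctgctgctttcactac

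A match is a description of these letters and not of a bound site.

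**Figure D1:**
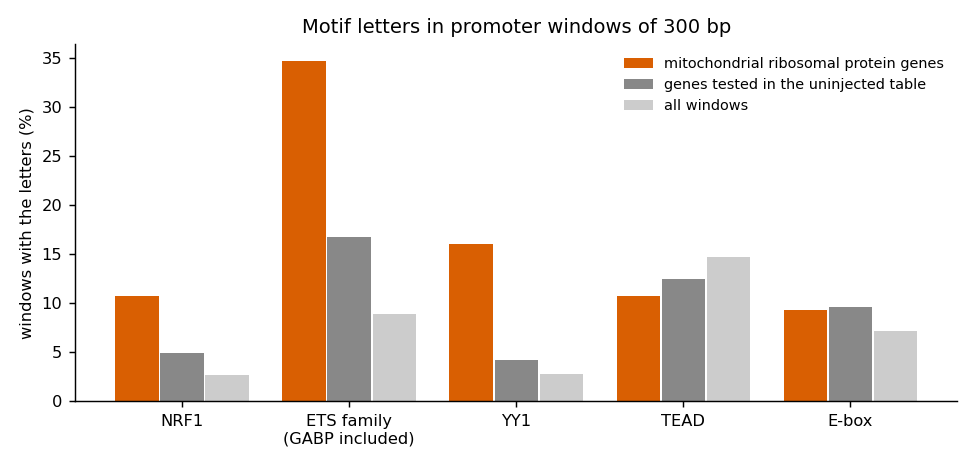
Share of 300 bp promoter windows, in percent, that hold the letters of each motif on either strand, for the mitochondrial ribosomal protein genes (orange), the genes tested in the uninjected table (dark grey) and all windows (light grey). The ETS letters stand at 34.7% in the mitochondrial ribosomal protein genes and 8.86% in all windows, whereas the TEAD letters stand at 10.7% and 14.7%.

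Between 15015038 and 31154155 reads per library fell on listed genes, and the mitochondrial ribosomal protein genes took 51085 to 93664 of them. Xirp2 read 106 to 168 CPM (reads of a gene per 1e6 reads, on the authors' scaled library sizes) in the WT libraries and 0.291 to 0.692 CPM in the Xinβ KO libraries. In the injected set it read at most 0.972 CPM in any Xinβ KO library and at least 56.0 CPM in any WT library, so each library matched its genotype label. Cardiomyocyte markers summed to 51885 CPM or more in every library.

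In uninjected WT hearts all 78 genes were expressed at moderate levels, with a median of 31.5 CPM (15.1 to 163 CPM). Per kilobase of annotated exon, a scale that allows for gene length, the median level was 16.2 CPM per kb. Large subunit symbols had a median level of 18.2 CPM per kb and small subunit symbols 11.9 CPM per kb. Their medians in CPM were 31.3 and 31.7, so this gap rests on annotated exon length. Within the large subunit, the 29 proteins with bacterial homologues had a median level of 16.6 CPM per kb and the 22 mitochondria-specific ones 18.6 CPM per kb. In the small subunit the corresponding medians were 11.9 CPM per kb for 16 genes and 9.34 CPM per kb for 10 genes. In CPM both orders were reversed, with medians of 33.6 and 31.1 in the large subunit and 31.1 and 35.4 in the small subunit.

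The highest level per kilobase belonged to Mrpl12, at 88.6 ± 8.55 CPM per kb (SD, n = 4), the stalk protein that recruits translation factors. Mrpl18 followed at 59.3 ± 3.24 CPM per kb and Mrps21 at 44.8 ± 23.8 CPM per kb. The SD of Mrps21 spans the levels of the genes next to it in the order, so its place is uncertain. The lowest levels were those of Mrps10 at 2.81 ± 0.206 CPM per kb, Mrpl17 at 3.258 ± 1.48 CPM per kb and Mrpl32 at 3.95 ± 1.09 CPM per kb, whose ranges overlap. These values rest on annotated exon length, and the low genes have long annotated exons (7605 bp in Mrpl17).

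**Figure D2:**
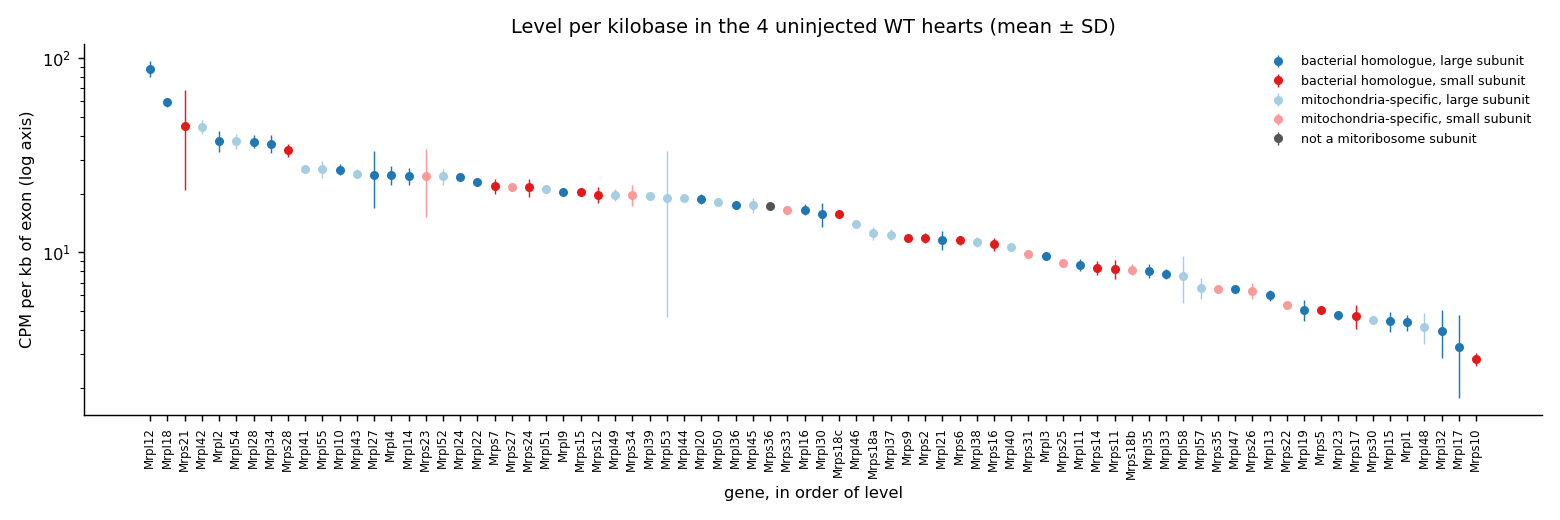
Level of each of the 78 genes in the 4 uninjected WT hearts, in CPM per kb of union exon length on a log axis, as mean ± SD and ordered from high to low, with colours for subunit and bacterial homology. Mrpl12 at 88.6 CPM per kb stands above the rest and Mrps10 at 2.81 CPM per kb is the lowest.

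Several genes with a role of their own were ordinary in level. Mrps12, a decoding centre protein, had a mean of 20.7 ± 1.997 CPM in WT (SD, n = 4). The paralogs Mrps18a, Mrps18b and Mrps18c, of which the first sits in the large subunit and the others in the small subunit, had means of 46.3 ± 3.54, 17.02 ± 1.12 and 16.99 ± 0.724 CPM. Mrps30, which carries a small subunit name but belongs to the large subunit, read 29.8 ± 0.348 CPM. Mrpl58, a peptidyl-tRNA hydrolase, read 25.2 ± 6.86 CPM. Mrps36, now known as a component of the α-ketoglutarate dehydrogenase complex, read 22.2 ± 0.254 CPM. Processed pseudogenes of Mrps36, Mrpl23 and Mrpl48 are listed in the tables, so the counts of these 3 genes may have been split with them. Exons of 21 of the 78 genes overlap an exon of a tested gene on the opposite strand, among them the pair Mrpl46 and Mrps11. Exons of 6 overlap one on the same strand, so their reads may be shared with the other gene. These are Mrpl3, Mrpl33, Mrpl53 (with the protein-coding Gm42688), Mrps6, Mrps24 and Mrps34. The libraries were strand-specific, but whether counting used strand is not given in the sources used here.

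One library stood apart. In uninjected Xinβ KO replicate 1, 76 of the 78 genes lay above their mean over the 8 uninjected libraries, with a median deviation of 0.51 on the log2 scale. The other 7 libraries had medians of -0.13 to 0.01. The summed level of the 78 genes was 4550 CPM in that library and 2854, 2879 and 3036 CPM in the other Xinβ KO libraries, against 2847 to 3093 CPM in WT. In the same library the median deviation of cytosolic ribosomal protein genes was 0.84, that of nuclear respiratory chain subunits was 0.67, that of the shortest 25% of all genes was 0.37 and that of the longest 25% was -0.35. A smaller shift of the same kind was seen in KO/GFP replicate 2, with a median deviation of 0.22, and in WT/GFP replicate 1, with 0.21. The shortest 25% of genes deviated by 0.19 and 0.10 in these libraries, and the longest by -0.11 and -0.08. In WT/YAP replicate 4 the shortest genes deviated by 0.096, while the median of the 78 genes was -0.02. The part of gene length or RNA quality in these shifts was not tested.

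**Figure D3:**
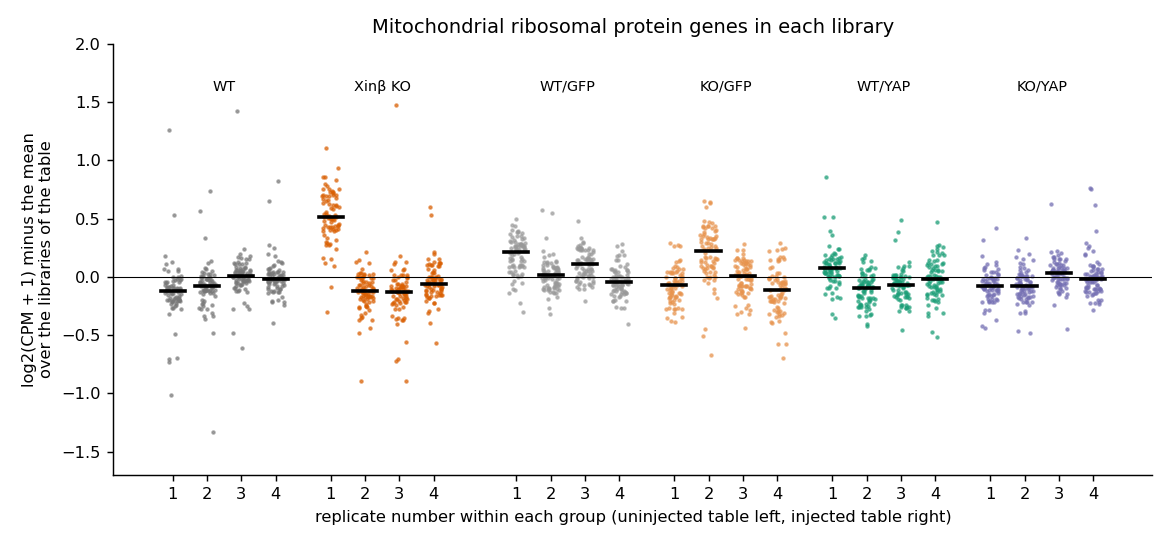
Deviation of each mitochondrial ribosomal protein gene (points) from its mean over the libraries of its table, in log2(CPM + 1), in each of the 24 libraries, with the median over the genes as a black bar. Xinβ KO replicate 1 is displaced upward with a median of 0.51, and the other uninjected medians lie between -0.13 and 0.01.

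This library set the spread of the uninjected set. The median within-group SD of the 78 genes was 0.25 on the log2 scale with it and 0.12 without it, against 0.21 and 0.14 for other tested genes in the same range of levels. In the injected set it was 0.16, against 0.19 for other genes. The largest within-group SDs in uninjected hearts were those of Mrpl53, Mrpl17, Mrps23 and Mrps21, at 0.98, 0.87, 0.73 and 0.71 on the log2 scale. Mrpl53 encodes a mitochondria-specific large subunit protein, and its exons overlap Gm42688 on the same strand. It read 23.2, 3.02, 26.2 and 7.79 CPM in the 4 WT hearts. Mrps21 read 16.3, 46.7, 19.6 and 49.9 CPM there. Mrpl17 read 33.1, 15.8, 14.4 and 35.9 CPM there, so that 2 libraries were high and 2 were low.

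The first comparison asked what loss of Xinβ alone does at postnatal day 7.5. None of the 78 genes was called between uninjected Xinβ KO and WT by limma at an adjusted p under 0.05, while 6.69% of all tested genes were. None of the 78 had an unadjusted p under 0.05, against 22.5% of all genes. The edgeR quasi-likelihood and exact tests and DESeq2, run on reads recovered from the values, also called 0. The median log2 fold change was 0.10, with 63 of 78 genes positive, against 0.0011 over all tested genes. Without Xinβ KO replicate 1 the median was -0.04, with 28 genes positive, 4 genes had an unadjusted p under 0.05, and still 0 were called, while 11.3% of all genes were. The 95% confidence interval of the log2 fold change lay within ±1 for 73 of the 78 genes.

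The largest positive differences were those of Mrpl27, Mrpl23 and Mrpl30, at log2 fold changes of 0.40, 0.36 and 0.33. None was called, and single libraries set their size. Mrpl27 read 12.9 CPM in WT replicate 1 and 26.8 to 31.2 CPM in the other WT hearts, and without that library its log2 fold change was 0.12. Without Xinβ KO replicate 1 that of Mrpl30 was 0.18 and that of Mrpl23 was 0.17. Mrpl23 read 45.4, 27.01, 27.7 and 24.2 CPM in Xinβ KO and 22.6, 21.8, 24.4 and 24.1 CPM in WT. Its groups met only at their edges, and replicate 1 gave the highest value. The largest negative differences were those of Mrpl53, Mrps21 and Mrps15, at -0.58, -0.17 and -0.15. That of Mrpl53 ran from -1.12 without WT replicate 2 to -0.20 without WT replicate 3. For Mrpl44 and Mrps35 (2 genes) no Xinβ KO value lay among the WT values, as was so for 16.4% of all genes. Mrpl44 read 46.2, 33.9, 34.4 and 34.9 CPM in Xinβ KO and 29.9, 32.5, 31.05 and 31.6 CPM in WT, with a log2 fold change of 0.24 (limma adjusted p = 0.279). Its highest value, too, came from Xinβ KO replicate 1, well above the other Xinβ KO hearts.

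Cytosolic ribosomal protein genes had a median log2 fold change of 0.24, with 0 of 76 called, and nuclear respiratory chain subunits 0.18, with 1 of 84 called. Without Xinβ KO replicate 1 these medians were 0.00026 and 0.02. The pathway genes around the mitochondrial ribosome were also mostly uncalled. Of 25 assembly factors, 13 translation factors, 20 mitochondrial aminoacyl-tRNA synthetases, 19 genes of mitochondrial transcription and RNA processing, 14 transcription regulators and 5 mitoribosomal proteins with other names, the regulator Myc alone was called. Myc rose from 6.86 ± 1.61 to 17.3 ± 2.96 CPM (SD, n = 4), a log2 fold change of 1.23 (limma adjusted p = 0.0057).

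Some markers of cell types differed in this comparison. Fibroblast markers fell for 4 of 8 genes, and their summed level was 2525 to 3869 CPM in Xinβ KO and 5146 to 5380 CPM in WT. Macrophage markers fell for 5 of 7, with sums of 50.6 to 94.8 and 92.2 to 110 CPM, and cardiomyocyte markers rose for 2 of 10. Of 8 endothelial markers Vwf rose by a log2 fold change of 1.19 and Kdr fell by 0.60, and of 8 smooth muscle and pericyte markers 1 fell. Of the adipocyte list, 2 of 6 genes were in the table, too few to describe adipocytes. Of these, Fabp4 rose by 0.86 (limma adjusted p = 0.013, 0.03 and 0.023 for Vwf, Kdr and Fabp4). Limma called 0 of 8 dividing-cell markers, while 7 of 8 had an unadjusted p under 0.05. Their sums were 84.6, 135, 81.5 and 552 CPM in Xinβ KO and 402 to 548 CPM in WT, so only Xinβ KO replicate 4 was not below WT. The neutrophil genes in the table, 2 of the list of 6, both rose, with sums of 41.7 to 93.2 and 3.73 to 8.92 CPM. The part of cell makeup in the values of the 78 genes was not tested.

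The second comparison repeated the genotype contrast under AAV9-GFP. Of the 78 genes, 1 was called higher and 0 lower in KO/GFP than in WT/GFP, while 6.43% of all tested genes were called higher and 7.22% lower, 13.7% in all. The median log2 fold change was -0.07, with 29 of 78 positive, against -0.01 over all genes. At an unadjusted p under 0.05 2 were higher and 8 lower, against 27.4% of all genes in either direction. No overlap between the groups was seen for 1 gene, and for 15.3% of all genes. The 95% confidence intervals lay within ±1 for all 78 genes in this and every other pairwise injected comparison.

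The called gene was Mrps35 (ENSMUSG00000040112, chr6:147042764-147073991, plus strand), a mitochondria-specific small subunit protein. It read 67.7, 75.1, 62.5 and 68.6 CPM in KO/GFP and 57.7, 55.5, 60.5 and 41.9 CPM in WT/GFP. Every KO/GFP heart was above every WT/GFP heart. The log2 fold change was 0.35 ± 0.11 (SE, limma adjusted p = 0.044), close to the threshold. In uninjected hearts it read 101, 61.2, 63.0 and 59.8 CPM in Xinβ KO and 55.5, 55.5, 58.2 and 53.5 CPM in WT. The groups did not overlap there either, but the difference was not called (log2 fold change 0.32, limma adjusted p = 0.306). The injected call was lost in 12 of the 16 fits that left out a library, where the adjusted p ranged from 0.032 to 0.13.

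Mrps35 has Ppfibp1 and Arntl2 upstream and Klhl42 downstream on chromosome 6. Ppfibp1, which encodes a liprin scaffold protein, ran from 146888487 to 147032025 and rose by a log2 fold change of 0.62 in KO/GFP (limma adjusted p = 0.0023). Arntl2 had a log2 fold change of 0.39 (limma adjusted p = 0.056) and Klhl42 of -0.08 (limma adjusted p = 0.788). In uninjected hearts none of these neighbours was called. Ppfibp1 read 51.6, 105, 124 and 98.8 CPM in Xinβ KO and 62.0, 63.1, 63.0 and 64.7 CPM in WT there (log2 fold change 0.51, limma adjusted p = 0.24), and replicate 1, highest of its group for Mrps35, was lowest for Ppfibp1. Arntl2 had a log2 fold change of 0.05 there (limma adjusted p = 0.892). The exons of Mrps35 overlap no exon of these genes in the annotation.

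**Figure D4:**
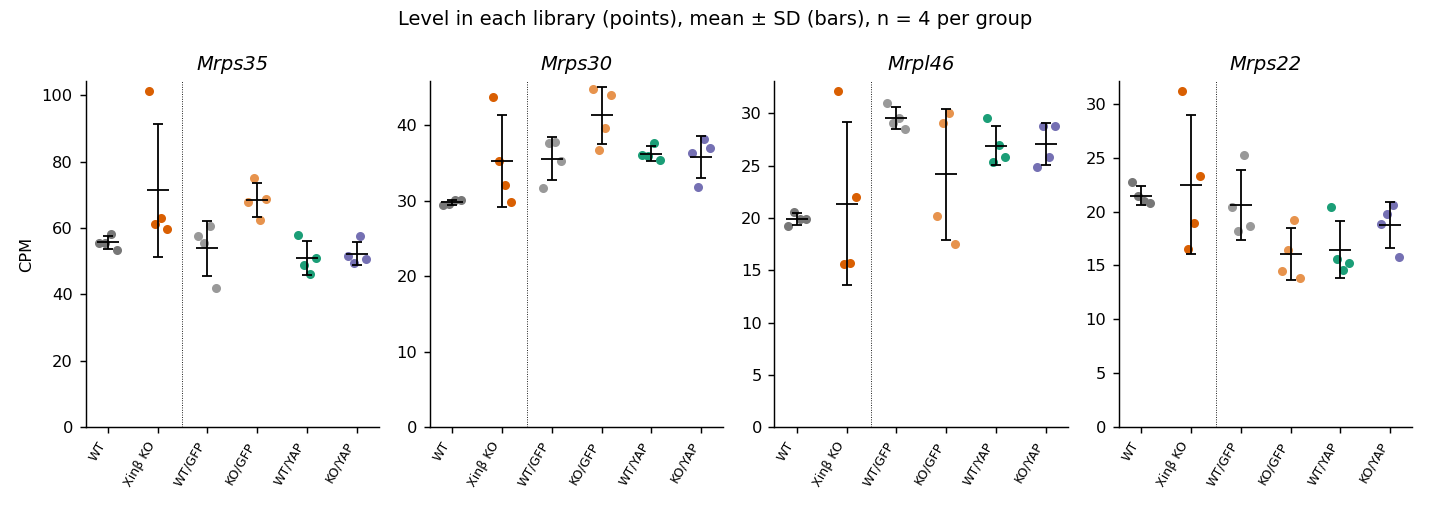
Level in CPM of Mrps35, Mrps30, Mrpl46 and Mrps22 in each of the 24 hearts (points) with mean ± SD (n = 4 per group), uninjected groups left of the dotted line and injected groups right of it. Mrps35 lies at 62.5 CPM or above in every KO/GFP heart and at 60.5 CPM or below in every other injected heart, while the other genes overlap between the groups compared.

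Next to Mrps35, the largest positive differences were those of Mrps30 and Mrps21, at log2 fold changes of 0.21 and 0.20. That of Mrps21 ran from 0.06 without KO/GFP replicate 2 to 0.32 without KO/GFP replicate 1. Mrps30 read 44.8, 36.8, 39.7 and 44.0 CPM in KO/GFP and 31.7, 37.7, 37.8 and 35.3 CPM in WT/GFP, and the groups overlapped (limma adjusted p = 0.142). The largest negative differences were those of Mrpl53, Mrps22 and Mrpl46, at -0.47, -0.34 and -0.31. Mrpl46, a mitochondria-specific large subunit protein, read 20.2, 29.0, 30.0 and 17.5 CPM in KO/GFP and 30.96, 29.1, 29.6 and 28.5 CPM in WT/GFP. Only replicates 1 and 4 of the KO/GFP hearts were below WT/GFP by a wide margin, and without replicate 4 its log2 fold change was -0.18. Mrps22, a small subunit protein, read 14.5, 16.5, 19.2 and 13.9 CPM and 20.4, 18.2, 25.2 and 18.6 CPM in the same groups (limma adjusted p = 0.119).

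This count depended on KO/GFP replicate 2, the library in which the set was displaced upward. Without it 7 genes were called, all lower in KO/GFP, and the median log2 fold change was -0.13, while 18.9% of all genes were called. These were Mrpl18, Mrpl40, Mrpl46, Mrpl49, Mrpl54, Mrps14 and Mrps15, with log2 fold changes of -0.29, -0.33, -0.41, -0.43, -0.40, -0.39 and -0.29. Mrps35 was not among them. Without KO/GFP replicate 3, Mrpl46 and Mrps27 were called lower beside Mrps35, while 15.2% of all genes were called. Without WT/GFP replicate 1, the other displaced library, 0 were called by limma, 4 had an unadjusted p under 0.05 and the median was -0.0023, while 9.87% of all genes were called.

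In KO/GFP against WT/GFP, cytosolic ribosomal protein genes had a median log2 fold change of 0.14, with 72 of 76 positive and 0 called. Respiratory chain subunits had a median of 0.03, with 53 of 84 positive and 2 called higher. Without KO/GFP replicate 2 these medians were 0.09 and -0.04. Among the pathway genes, the translation elongation factors Tufm and Tsfm fell, by 0.35 and 0.34 on the log2 scale (limma adjusted p = 0.018 and 0.042). Tufm, which delivers aminoacyl-tRNA to the mitochondrial ribosome, read 110, 123, 124 and 108 CPM in KO/GFP and 172, 141, 126.8 and 157 CPM in WT/GFP. Every KO/GFP value was lower. Of the 20 aminoacyl-tRNA synthetases, Wars2 fell by 0.67 and Ears2 rose by 0.37 (limma adjusted p = 0.037 and 0.015). Of the 25 assembly factors, Rbfa, which acts on the small subunit, rose by 0.41 (limma adjusted p = 0.014). Of the 14 regulators, Myc, Esrra and Ppargc1b rose, by 1.20, 0.27 and 0.35 (limma adjusted p = 0.0017, 0.025 and 0.03). None of the 5 mitoribosomal proteins with other names and none of the 19 transcription and RNA processing genes was called by limma, with 1 of each list at an unadjusted p under 0.05.

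Fibroblast markers fell for 6 of 8 genes here, with sums of 2156 to 3580 CPM in KO/GFP and 4615 to 5447 CPM in WT/GFP. Macrophage markers fell for 5 of 8, with sums of 53.6 to 109 and 111 to 176 CPM, and dividing-cell markers for 7 of 8, with sums of 66.9 to 356 and 395 to 502 CPM. Cardiomyocyte markers rose for 3 of 10, both neutrophil genes rose, and erythroid markers fell for 5 of 6. Of 8 endothelial markers 1 rose and 3 fell, of 8 smooth muscle and pericyte markers 1 fell, and Fabp4 rose by 0.70 (limma adjusted p = 0.0023). The part of cell makeup in the values of the 78 genes was not tested.

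The third comparison asked what YAP S127A changes in Xinβ KO hearts. Between KO/YAP and KO/GFP, 0 genes were called higher and 1 lower, Mrps35, against 7.85% of all genes called higher and 6.92% lower, 14.8% in all. The median log2 fold change was -0.04, with 29 of 78 positive, against 0.01 over all genes, and 4 genes were lower at an unadjusted p under 0.05, against 29.6% of all genes in either direction. The groups did not overlap for 2 genes, Mrps35 and Mrpl38, against 17.5% of all genes. This comparison and the GFP genotype contrast share the KO/GFP hearts.

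Mrps35 read 51.4, 49.5, 57.5 and 50.7 CPM in KO/YAP, below every KO/GFP heart, and fell by 0.38 on the log2 scale (SE 0.11, limma adjusted p = 0.028). Leaving out a library gave adjusted p values of 0.0099 to 0.075, and the call was lost in 6 of the 16 such fits, those without replicate 1, 2 or 4 of KO/GFP or of KO/YAP. Against WT/GFP the log2 fold change in KO/YAP was -0.03 (limma adjusted p = 0.964), with a 95% confidence interval of -0.27 to 0.20. In WT hearts YAP S127A gave 58.0, 48.9, 46.2 and 50.8 CPM, a log2 fold change of -0.07. The difference between the YAP S127A responses of the genotypes was -0.31 (limma adjusted p = 0.237), which was not called. Ppfibp1 fell by 0.51 (limma adjusted p = 0.0075), and for it the difference between the responses was called (-0.70, limma adjusted p = 0.018).

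The largest positive differences under YAP S127A in Xinβ KO were those of Mrpl53, Mrps23 and Mrpl48, at log2 fold changes of 0.35, 0.26 and 0.26, and none was called. That of Mrps23 was 0.05 without KO/GFP replicate 2, that of Mrpl53 was 0.55 without KO/YAP replicate 2, and that of Mrpl48 was 0.13 without KO/GFP replicate 4. Mrpl48 read 47.8, 56.7, 53.5 and 58.2 CPM in KO/YAP and 42.8, 60.3, 45.6 and 34.3 CPM in KO/GFP. Its groups overlapped through KO/GFP replicate 2. Without that library Mrpl48 was called higher (0.40, limma adjusted p = 0.024), Mrps35 was no longer called, and the median over the 78 genes was 0.03. After Mrps35, the largest negative differences were those of Mrpl23 and Mrpl2, at -0.24 and -0.23, and both were at -0.13 without KO/GFP replicate 2.

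Of 76 cytosolic ribosomal protein genes 12 fell, with a median log2 fold change of -0.27, and of 84 respiratory chain subunits 6 fell, with a median of -0.16. Without KO/GFP replicate 2 the medians were -0.21 and -0.05, and leaving out any 1 library left 5 to 28 cytosolic and 2 to 8 respiratory chain genes called lower. The cytosolic count was 28 without KO/GFP replicate 3, 21 without WT/GFP replicate 1, 7 without KO/GFP replicate 4, 6 without KO/GFP replicate 1, KO/YAP replicate 1 or KO/YAP replicate 4, and 5 without KO/YAP replicate 2. The respiratory chain count was 2 without KO/YAP replicate 1 and 3 without KO/YAP replicate 2, and the median of these genes was -0.24 without KO/GFP replicate 4. The medians of the 25 assembly factors, 13 translation factors, 20 aminoacyl-tRNA synthetases, 19 transcription and RNA processing genes and 14 regulators lay between -0.02 and 0.04. Of the 5 mitoribosomal proteins with other names, Dap3, a GTP-binding small subunit protein, fell by 0.31 (limma adjusted p = 0.015). It read 69.5, 65.1, 63.8 and 64.4 CPM in KO/GFP and 52.2, 52.8, 54.0 and 52.0 CPM in KO/YAP, with no overlap. Rbfa fell by 0.41, Ears2 by 0.39 and Esrra by 0.24 (limma adjusted p = 0.013, 0.011 and 0.038). Tsfm, Wars2 and Fastkd2 rose, by 0.37, 0.69 and 0.43 (limma adjusted p = 0.027, 0.03 and 0.048). Hsd17b10, a subunit of mitochondrial RNase P, fell by 0.53 (limma adjusted p = 0.0082). Fibroblast markers rose for 6 of 8 genes, macrophage markers for 5 of 8, dividing-cell markers for 4 of 8 and smooth muscle and pericyte markers for 3 of 8, while cardiomyocyte markers fell for 4 of 10. Of 8 endothelial markers 2 rose and 2 fell. Both neutrophil genes fell, with sums of 26.5 to 39.5 CPM in KO/GFP and 1.92 to 9.95 CPM in KO/YAP. Fabp4, from the adipocyte list, of which 2 of 6 genes were in the table, fell by 0.79 on the log2 scale (limma adjusted p = 0.00097). The part of these cell types in the values was not tested.

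**Figure D5:**
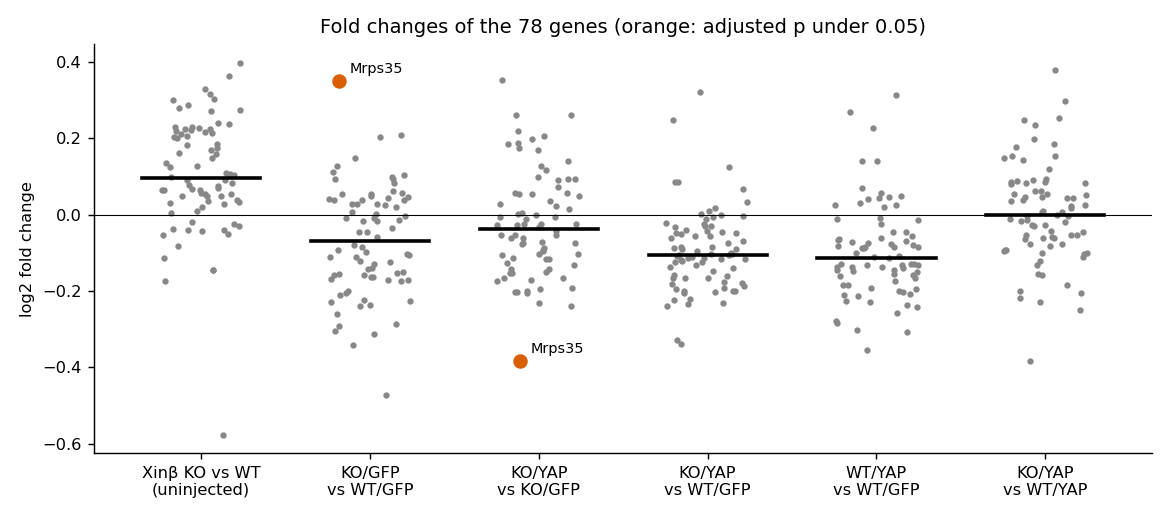
Log2 fold changes of the 78 genes (points) in each pairwise comparison, with the median over the genes as a black bar and called genes in orange. Mrps35 is the called gene in KO/GFP against WT/GFP (0.35) and in KO/YAP against KO/GFP (-0.38), and the medians lie between -0.11 and 0.10.

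Few genes of any kind were called in the remaining pairwise comparisons. Between KO/YAP and WT/GFP, limma called 0 of the 78 genes and 0.0206% of all genes. At an unadjusted p under 0.05, 5 were lower and 0 higher, against 6.08% of all genes, edgeR and DESeq2 also called 0, and the groups did not overlap for 5 genes, against 4.45% of all genes. The median log2 fold change was -0.10, with 10 of 78 positive, and without WT/GFP replicate 1 it was -0.05, with 21 positive and 1 gene at an unadjusted p under 0.05. Cytosolic ribosomal protein genes had a median of -0.13, with 4 of 76 positive, and respiratory chain subunits -0.12, with 8 of 84 positive, and without that library -0.04 and -0.06. None of the 6 erythroid markers was called by limma, but all 6 were lower at an unadjusted p under 0.05, with a median of -1.11 and sums of 1866 to 2061 CPM in KO/YAP and 3392 to 8422 CPM in WT/GFP. Their part in the values of the 78 genes was not tested. The largest negative difference was that of Mrpl17, at -0.34. Mrps16, a small subunit protein with a bacterial homologue, read 25.9, 24.1, 26.1 and 24.4 CPM in KO/YAP and 38.5, 30.8, 26.9 and 32.1 CPM in WT/GFP. All 4 values were lower, with a log2 fold change of -0.33 (limma adjusted p = 0.678). Mrpl1 followed at -0.24, and Mrps21, Mrps23 and Mrpl3 had the largest positive differences, at 0.32, 0.25 and 0.12. Without KO/YAP replicate 4 the first of these were at 0.11 and 0.066, and without KO/YAP replicate 2 Mrpl3 was at 0.04.

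Between WT/YAP and WT/GFP, limma called 0 of the 78 genes and 0% of all genes, edgeR and DESeq2 called 0 of the 78, and 11 were lower and 0 higher at an unadjusted p under 0.05, against 6.93% of all genes. The count of 11 fell to 3 without WT/GFP replicate 3 or WT/YAP replicate 3, to 4 without WT/GFP replicate 1 or WT/YAP replicate 4, and to 7 without WT/YAP replicate 2. The median log2 fold change was -0.11, with 15 of 78 positive. The groups did not overlap for 3 genes, Mrpl41, Mrpl24 and Mrps27, against 4.32% of all genes. Mrpl41 read 37.9, 34.9, 37.4 and 39.5 CPM in WT/YAP and 47.3, 41.6, 45.7 and 45.3 CPM in WT/GFP, a log2 fold change of -0.26 (limma adjusted p = 0.674). Mrpl53, Mrps22 and Mrpl35 had the largest negative differences, at -0.35, -0.31 and -0.30, and Mrpl32, Mrps21 and Mrpl14 the largest positive ones, at 0.31, 0.27 and 0.23. Mrps21 was at 0.0085 without WT/YAP replicate 1, Mrpl14 at 0.15 without WT/YAP replicate 3 and Mrpl32 at 0.52 without WT/YAP replicate 2. Mrpl12 read 162, 134, 126 and 121 CPM and 206, 159, 150 and 148 CPM in the same groups. The value of 206 CPM came from WT/GFP replicate 1, and without this library the median over the 78 genes was -0.06, with 22 positive. Limma called 0 of the 6 erythroid and 0 of the 8 macrophage markers here, while 1 and 2 were lower at an unadjusted p under 0.05, with medians of -0.44 and -0.27. The erythroid markers summed to 2664 to 3883 CPM in WT/YAP and 3392 to 8422 CPM in WT/GFP, and the macrophage markers to 99.1 to 112 and 111 to 176 CPM. Their part in the values was not tested. Both comparisons with WT/GFP share these hearts.

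Between KO/YAP and WT/YAP, limma called 0 of the 78 genes and 0.0411% of all genes, edgeR and DESeq2 also called 0 of the 78, and 3 were higher and 0 lower at an unadjusted p under 0.05, against 11.1% of all genes. The median log2 fold change was -0.0022, with 38 of 78 positive. The groups did not overlap for 5 genes, against 9.23% of all genes. Mrps23 read 39.1, 40.7, 42.7 and 68.0 CPM in KO/YAP and 37.5, 38.6, 38.6 and 28.2 CPM in WT/YAP, a log2 fold change of 0.38 (limma adjusted p = 0.478). Without KO/YAP replicate 4 it was 0.20. Mrpl48 and Mrps31 followed at 0.30 and 0.25, and Mrps31 was at 0.14 without WT/YAP replicate 4. Mrpl32, Mrpl14 and Mrpl58 had the largest negative differences, at -0.38, -0.25 and -0.23. Leaving out a library gave -0.59 to -0.27 for Mrpl32 (strongest without WT/YAP replicate 2), -0.35 to -0.16 for Mrpl14 (weakest without KO/YAP replicate 1) and -0.35 to -0.14 for Mrpl58 (weakest without WT/YAP replicate 1). Of the 6 erythroid markers 4 were lower at an unadjusted p under 0.05 and 0 were called by limma, with sums of 1866 to 2061 CPM in KO/YAP and 2664 to 3883 CPM in WT/YAP.

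The interaction, in which the YAP S127A response in Xinβ KO is set against that in WT, was called for 0 of the 78 genes by limma, against 7.56% of all genes. At an unadjusted p under 0.05, 5 were positive and 1 negative, against 23.7% of all genes, and the edgeR quasi-likelihood test and DESeq2 also called 0. The median difference of log2 fold changes was 0.06, with 49 of 78 positive, against 0.01 over all genes. The interaction was called positive for 5 of 8 fibroblast and 3 of 8 macrophage markers and negative for both neutrophil genes and 3 of 10 cardiomyocyte markers. Mrpl53, Mrps22 and Mrpl48 had the largest positive values, at 0.71, 0.53 and 0.47, and Mrpl14, Mrps35 and Mrpl24 the largest negative ones, at -0.34, -0.31 and -0.28, with Mrps35 at -0.20 without WT/GFP replicate 4. When libraries were weighted by their quality, 8 of the 78 genes were called, 7 positive and 1 negative, and so were 20.4% of all genes. The 7 were Mrpl40, Mrpl46, Mrpl47, Mrpl48, Mrpl49, Mrps22 and Mrps27, with values of 0.42 to 0.66, and the negative one was Mrps30 at -0.33. Without KO/GFP replicate 2 Mrpl48 was called (0.61, limma adjusted p = 0.022), and without KO/YAP replicate 2 Mrpl53 was called (0.91, limma adjusted p = 0.047). With all libraries the processed pseudogene of Mrpl48 had a value of 1.97, which was not called (limma adjusted p = 0.052). The part of shared reads in the values of Mrpl48 was not tested.

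By subunit, the medians stayed close together in the main contrasts. In KO/GFP against WT/GFP the 49 large subunit symbols had a median log2 fold change of -0.09 and the 29 small subunit symbols -0.02. In uninjected hearts they had 0.07 and 0.13, and in KO/YAP against KO/GFP -0.03 and -0.05. The genes share libraries and a length range and are not replicates of a condition, so these medians carry no test.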

How the data were processed

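RNA from hearts at postnatal day 7.5 was sequenced in poly(A)-selected, strand-specific libraries, as single 50 bp reads (uninjected) or paired 150 bp reads (injected), at different facilities. Per the study's methods and the submitters' processing notes, the authors used cutadapt 2.3 for trimming, HISAT2 2.1.0 for alignment to GRCm38, StringTie 1.3.4 for assembly and counting and edgeR 3.26.1 for CPM. The deposited signal values are CPM on scaled library sizes, so columns do not sum to 1e6. Depth was therefore recovered as whole reads (within 0.1 of a whole number for 100% of values in each library).

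Symbols, lengths and coordinates came from GENCODE M21. Values were tested as log2(CPM + 1), so fold changes of low genes are understated, with limma 3.58.1 (mean-variance trend, Benjamini-Hochberg over all tested genes, called at an adjusted p under 0.05) in genes above 1 CPM in at least 4 of 8 or 8 of 16 libraries. The tables were normalized separately and fitted apart, with 1 model for the 16 injected libraries. The design assumed plain CPM; this test fits the scaled values too. edgeR 4.0.16 and DESeq2 1.42.0 on recovered reads and other settings were alternatives, and the fits were tested on simulated data. Medians of other gene families without each library were added after seeing the data. Each library was labelled as a separate heart sample, and p-values measure the spread between these samples.

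Genes named were those called (or the 3 largest differences in each direction where fewer than 3 were called), the 3 highest and 3 lowest per kilobase, 8 genes with roles of their own, called pathway genes (at most 4 per list and comparison), Xirp2, and genes beside a library that stands apart. Further genes were named after their values were seen: those whose groups did not overlap, those that an alternative fit called, the neighbours of Mrps35, Fabp4, Vwf, Kdr, and Mrpl17 for its spread. The members and lists were chosen with earlier results of these data known.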

Additional observations from a re-analysis of the deposited data

Results flagged for a closer look

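In a group of 4 libraries, a value was singled out when its gap to the nearest other value was above Dixon's 95% critical value, which chance gives in about 1 in 20 groups. Of 186 groups of values examined, 23 were singled out, with 9.3 given by that rate, and the groups share libraries.

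Uninjected Xinβ KO replicate 1 gave 12 of them. In this library the median deviation of the 78 genes was 0.51 on the log2 scale and their summed level was 4550 CPM. Mrpl12 read 281 CPM, Mrpl2 76.2 CPM, Mrpl23 45.4 CPM, Mrpl24 74.0 CPM, Mrps16 56.6 CPM and Mrps35 101 CPM there. Mrpl27 read 43.8 CPM, Mrps18b 28.7 CPM and Mrps18c 26.96 CPM, each also the highest of its group. Mrpl32, at 15.7 CPM, was instead the lowest of its group.

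KO/GFP replicate 2 was highest for Mrpl35 at 39.5 CPM, Mrps18c at 36.5 CPM and Mrps36 at 60.5 CPM. Mrps23 was highest in Xinβ KO replicate 3 at 114 CPM and in KO/YAP replicate 4 at 68.0 CPM, and lowest in WT/YAP replicate 4 at 28.2 CPM. Mrpl32 was lowest in WT replicate 1 at 11.6 CPM and in WT/YAP replicate 2 at 14.4 CPM. Mrps18b was lowest in WT/YAP replicate 2 at 14.8 CPM, Mrps21 highest in WT/YAP replicate 1 at 73.4 CPM and Mrpl3 highest in KO/YAP replicate 2 at 75.9 CPM.

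The interaction test, which asks whether the YAP S127A response differed between Xinβ KO and WT, called 1 of 25 assembly factors, 1 of 13 translation factors, 2 of 20 aminoacyl-tRNA synthetases, 1 of 14 regulators, 0 of 19 transcription and RNA processing genes and 0 of 5 mitoribosomal proteins with other names by limma, against 7.56% of all genes. In the last 2 lists 3 and 2 genes had an unadjusted p under 0.05. It also called Ppfibp1, the neighbour of Mrps35. The difference of log2 fold changes was 0.71 for Fastkd2, 0.60 for Tsfm, 1.01 for Wars2, -0.51 for Ears2, -1.05 for Myc and -0.70 for Ppfibp1 (limma adjusted p = 0.04, 0.026, 0.042, 0.03, 0.044 and 0.018).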

How the results depend on the processing

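Limma calls in KO/GFP against WT/GFP fell from 1 to 0 with quantile normalization, without the mean-variance trend, with the replicate block and with only the compared groups in the fit, and the adjusted p of Mrps35 was then 0.08, 0.059, 0.066 and 0.129. Leaving out a library gave 0 to 7 calls there, 0 to 1 in KO/YAP against KO/GFP and in the interaction, and 0 to 0 elsewhere. Sample weights gave 8 calls in the interaction. The cause was not tested. The edgeR and DESeq2 fits on recovered reads, the other pseudocount, no filter, median-of-ratios scaling and a term for Ddx3y kept the count of called genes in each comparison they were run on. Ddx3y, a Y-linked gene, read 39.5 to 49.6 CPM in uninjected WT and 3.68 to 56.2 CPM in Xinβ KO. In KO/GFP it read 0.588 CPM in replicate 2 and 51.6 to 68.1 CPM in the other hearts. Each injected group held a heart at 8.61 CPM or below. Leaving out a library moved the median log2 fold change to -0.04 to 0.16 in uninjected hearts, -0.13 to -0.0023 in KO/GFP against WT/GFP, -0.09 to 0.03 in KO/YAP against KO/GFP, -0.14 to -0.05 in KO/YAP against WT/GFP, -0.16 to -0.06 in WT/YAP against WT/GFP, -0.03 to 0.05 in KO/YAP against WT/YAP and 0.00074 to 0.10 in the interaction. In uninjected hearts leaving out a library moved the uncalled Mrps21 to -0.45 to 0.071 and Mrps15 to -0.33 to 0.017.

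Correlations of same-numbered libraries ran from -0.19 to 0.14, so replicate numbers gave no sign of pairing. The sample labels do not name litters, so pairing of littermates could not be examined. With the replicate block, 0 of the 78 genes were called in each comparison except KO/YAP against KO/GFP, where 1 was called, and over all genes the uninjected share fell from 6.69% to 2.47%. Each group holds 4 hearts, and a median 95% confidence interval half-width of 0.38 on the log2 scale bounds what uninjected hearts can show.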
